A study of Mus musculus with 6 samples.

Results

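The genes described here are the Wnt ligands, their Frizzled and LRP receptors, and the proteins that tune them at the cell surface or outside the cell, measured in lung fibroblast cultures of mice. A gene was included by its annotated symbol: any Wnt, Fzd, Sfrp, Dkk, Rspo or Lgr4 to Lgr6 gene, Lrp5 or Lrp6, and Wif1, Axin2, Znrf3, Rnf43 and Lef1. The rule found 51 genes on 90 probes, of 19057 genes and 45281 probes on the array. Each of the 6 cultures came from a different mouse aged 10 weeks, 3 with the genotype p38+/+ (wt) and 3 with p38ki/ki (ki). Culture medium held 15% fetal calf serum; cells were used at passage 1, and their RNA was hybridised to Illumina bead arrays, on which each probe is a short DNA carried by coated beads. The labels do not spell out ki, and give neither the p38 gene concerned, nor what was changed in it, nor the sex of the animals, so no targeted gene was checked here. p38 kinases are stress-activated protein kinases.

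Wnt proteins are secreted, lipid-modified signals that bind a Frizzled receptor together with the co-receptor LRP5 or LRP6. This binding stops a scaffold complex built on Axin from destroying beta-catenin, which then enters the nucleus and switches on genes with factors of the TCF/LEF family. Other Wnts act through Frizzled and Ror receptors on cell shape and polarity without beta-catenin. Sfrp and Wif1 proteins bind Wnts outside the cell, Dkk proteins of the Dkk1 kind block LRP5 and LRP6, and R-spondins raise the number of Frizzled receptors by removing the ubiquitin ligases Znrf3 and Rnf43 with the help of Lgr receptors. In the mouse lung, Wnt signals between epithelium and mesenchyme guide growth and repair.

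Levels below are quantile-normalised log2 intensities, a difference is the ki mean less the wt mean with its standard error (SE), and each genotype has n = 3 mice. A gene was tested if a probe was detected above the negative controls (detection p under 0.05) on 3 or more arrays, and was represented by its brightest probe. It passed at a Benjamini-Hochberg adjusted p under 0.05 in limma's moderated test, fitted on all 18249 detected probes and adjusted over all 10412 genes tested. Of these, 1688 passed, 907 higher and 781 lower in ki, and scaling each array to its median over all probes gave 361 higher and 1302 lower. The arrays detected 17601 to 18531 probes each and precision is limited by how few arrays there are. The fibroblast markers Dcn (14.72 in wt and 14.74 in ki), Fn1 and Col1a1 were detected on all 6 arrays, and the macrophage genes Lyz2 (15.97 and 16.01), Fcer1g and C1qb were as well. Levels of different probes are not comparable. Beyond the choice of a gene's probe and of the markers to name, no gene is ranked against another by level. In such bulk cultures, fewer cells of a type and less RNA per cell cannot be told apart.

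Detection was incomplete for the family, as it was for the array as a whole. Of the 51 genes, 25 were tested and 26 were not, beside 10412 tested of the 19057 genes on the array. Of the 26, 19 were detected on no array and 7 on 1 or 2 arrays, and no probe of these genes exceeded 49.8 deposited intensity units. The ligands detected on no array were Wnt1, Wnt2b, Wnt3, Wnt8a, Wnt8b, Wnt9a, Wnt9b, Wnt10a, Wnt10b and Wnt11, with Wnt3a detected on 1 ki array and Wnt16 on 1 wt array. Among receptors, Fzd9 was undetected and Fzd10 was detected on 1 wt array. Of the secreted inhibitors, Dkk1, Dkk2, Dkk4 and Wif1 were detected nowhere, Sfrp4 was detected on 2 ki arrays and Sfrp5 on 2 wt arrays. Lgr4, Znrf3, Rnf43 and the transcription factor Lef1 were undetected, Lgr5 was detected on 1 wt array and Rspo1 on 1 ki array. An undetected probe sets only an upper bound on a transcript.

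**Figure D1:**
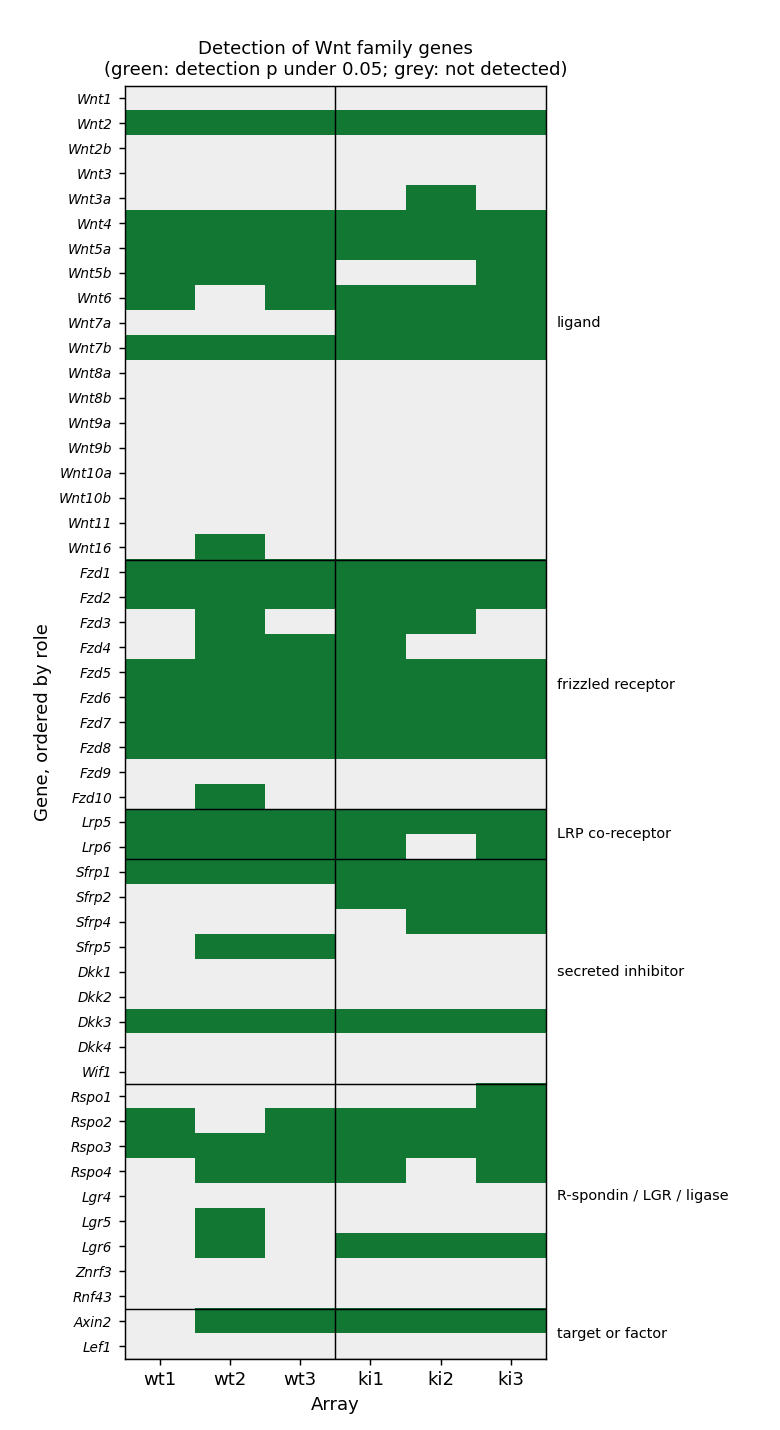
Detection of the 51 Wnt family genes (rows, grouped by role) on the 3 wt and 3 ki arrays (columns), shown for the representative probe of tested genes and the most often detected probe of the others; green marks a detection p under 0.05. Wnt7a and Sfrp2 are green on the 3 ki arrays and on 0 wt arrays.

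In the ki cultures several Wnt ligands and the target Axin2 were higher, while the modulators Sfrp1 and Rspo3 were lower. Of the 25 tested genes, 8 were higher in ki (Wnt7a, Axin2, Wnt2, Wnt7b, Wnt4, Fzd6, Sfrp2 and Dkk3) and 2 lower (Sfrp1 and Rspo3), while 15 did not pass. Over all genes tested 16.2% passed, 8.71% higher and 7.5% lower. Of the 8, Wnt7a and Sfrp2 were detected on no wt array. Of the 14 genes detected on all 6 arrays, 5 were higher and 2 lower, where 8.76% and 7.48% of the 9208 genes of the array detected that way were higher and lower. The median difference over the 25 was 0.11, beside 0.007 over all genes tested. The levels of the genotypes did not overlap in 12 of the 25, with ki above in 9 and below in 3, against 38.4% of all genes tested (20.3% above and 18.1% below). Without both the brightest wt array and the dimmest ki array 3 genes remained higher (Wnt7a, Axin2 and Wnt2) and 0 lower.

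Of the 19 Wnt ligands 7 were tested, 4 rose in ki and 0 fell (limma, also 4 and 0 at an unadjusted p under 0.05). Over all genes tested 8.71% rose and 7.5% fell, shares that also stand beside the counts of the other roles below. The 4 ligands that rose were Wnt7a, Wnt2, Wnt7b and Wnt4. Of the 4 ligands detected on all 6 arrays, Wnt2, Wnt7b and Wnt4 rose and Wnt5a did not pass. Wnt7a, a signal of limb and reproductive tract patterning, was at 5.27, 5.08 and 5.40 on wt arrays 1 to 3 and at 7.20, 7.44 and 7.31 on ki arrays 1 to 3. No wt array was above background and every ki array was, so the groups did not overlap. The rise was at least 2.97-fold (fitted difference 2.07, SE 0.11, adjusted p = 0.000108), counted against the lowest detected level on the wt arrays. Wnt7a entered the test only through its ki arrays, so it had to differ to be tested.

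Wnt2, a ligand of lung mesenchyme that acts together with Wnt2b in lung specification in the mouse embryo, was detected on all 6 arrays. Its levels were 6.53, 6.12 and 6.56 in wt and 7.31, 7.42 and 7.32 in ki. The ki arrays lay close together and above all wt arrays, a 1.93-fold rise (0.95, SE 0.13, adjusted p = 0.0041). Wnt7b, which developing lung epithelium sends to the mesenchyme, was at 5.99, 5.75 and 6.32 in wt and at 6.84, 7.21 and 6.82 in ki. These groups did not overlap either, and the rise was 1.91-fold (0.94, SE 0.17, adjusted p = 0.0138). A dimmer Wnt7b probe, detected on 1 wt and 2 ki arrays, differed by 0.24 (SE 0.19) with overlapping groups. Without wt array 1 Wnt7b missed the threshold (adjusted p = 0.0537). It also missed with the mean of the gene's probes, with replicate number as a block, and without both wt array 1 and ki array 2 (limma adjusted p up to 0.101).

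Wnt4, a signal of kidney tubule and ovary formation, was at 6.79, 6.63 and 6.23 in wt and at 7.16, 7.27 and 7.60 in ki. All ki arrays were above all wt arrays, 1.73-fold on average (0.79, SE 0.18, adjusted p = 0.0268). Its second probe gave 0.62 (SE 0.26), with 1 ki array inside the wt range. The call was lost without wt array 2 or 3 or ki array 2 or 3 (adjusted p 0.057 to 0.0706). Wnt5a, the main ligand of the beta-catenin-independent branch, was at 10.04, 10.01 and 10.10 in wt and at 10.18, 10.12 and 10.20 in ki. The ki arrays were all higher, but by 0.12 (95% interval -0.053 to 0.29, adjusted p = 0.319), which did not pass and became -0.12 with each array scaled to its median over all probes. Wnt5b and Wnt6, both near background, differed by -0.24 and 0.097 with overlapping groups.

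The promoters of the ligands and target with the largest increases that had an entry in the RefSeq promoter table are shown because these genes rose on the same arrays. The table held 33 of the 51 genes, 5 of them among the 10 that passed. Each line gives the 250 bases before the transcription start in the direction of the gene, in GRCm38.p6, with CG dinucleotides, the sites of DNA methylation, in capitals. The windows are chr6:91411354-91411603 on the minus strand for Wnt7a, chr11:108920099-108920348 on the plus strand for Axin2 and chr6:18030446-18030695 on the minus strand for Wnt2. The Axin2 and Wnt2 windows lie inside the annotated gene spans (108917828 to 108950783 and 17985474 to 18032772), so they precede a start that is not the outermost one.
Wnt7a: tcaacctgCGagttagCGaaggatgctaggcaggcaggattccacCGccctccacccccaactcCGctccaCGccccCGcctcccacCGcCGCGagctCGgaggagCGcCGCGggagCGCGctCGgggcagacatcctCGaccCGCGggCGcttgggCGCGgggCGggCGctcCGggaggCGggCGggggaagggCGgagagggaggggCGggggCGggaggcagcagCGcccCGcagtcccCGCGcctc
Axin2: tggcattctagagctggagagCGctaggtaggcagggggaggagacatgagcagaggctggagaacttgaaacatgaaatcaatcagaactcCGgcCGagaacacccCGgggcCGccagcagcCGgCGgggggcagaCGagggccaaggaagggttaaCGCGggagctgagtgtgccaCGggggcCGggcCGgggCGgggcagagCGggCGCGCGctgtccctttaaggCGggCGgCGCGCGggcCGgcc
Wnt2: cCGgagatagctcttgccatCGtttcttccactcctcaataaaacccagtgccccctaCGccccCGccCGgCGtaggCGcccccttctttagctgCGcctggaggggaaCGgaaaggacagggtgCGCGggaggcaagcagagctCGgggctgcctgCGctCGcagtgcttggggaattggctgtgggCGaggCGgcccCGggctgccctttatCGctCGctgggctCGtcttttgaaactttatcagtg

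These windows are rich in CG. The Wnt7a window holds 34 CG dinucleotides, a number reached by 3.53% of the 32851 windows in the table, the Axin2 window 24 (11.98% of windows) and the Wnt2 window 20 (17.95%). The median over all windows was 6, and over the 33 family genes, taking the richest window of each, 22. The core of the TCF/LEF site, CTTTGA on either strand, was in 5 of the 33 genes (15.2%), beside 15.8% of all 27025 genes, and in 0 of the 5 that passed. The palindromic AP-1 site TGANTCA was in 1 of the 33, beside 7.82% of all genes, and in 0 of the 5. CG dinucleotides were counted after neither motif had been found in the genes that passed, and a window without a match says nothing of sites elsewhere.

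**Figure D2:**
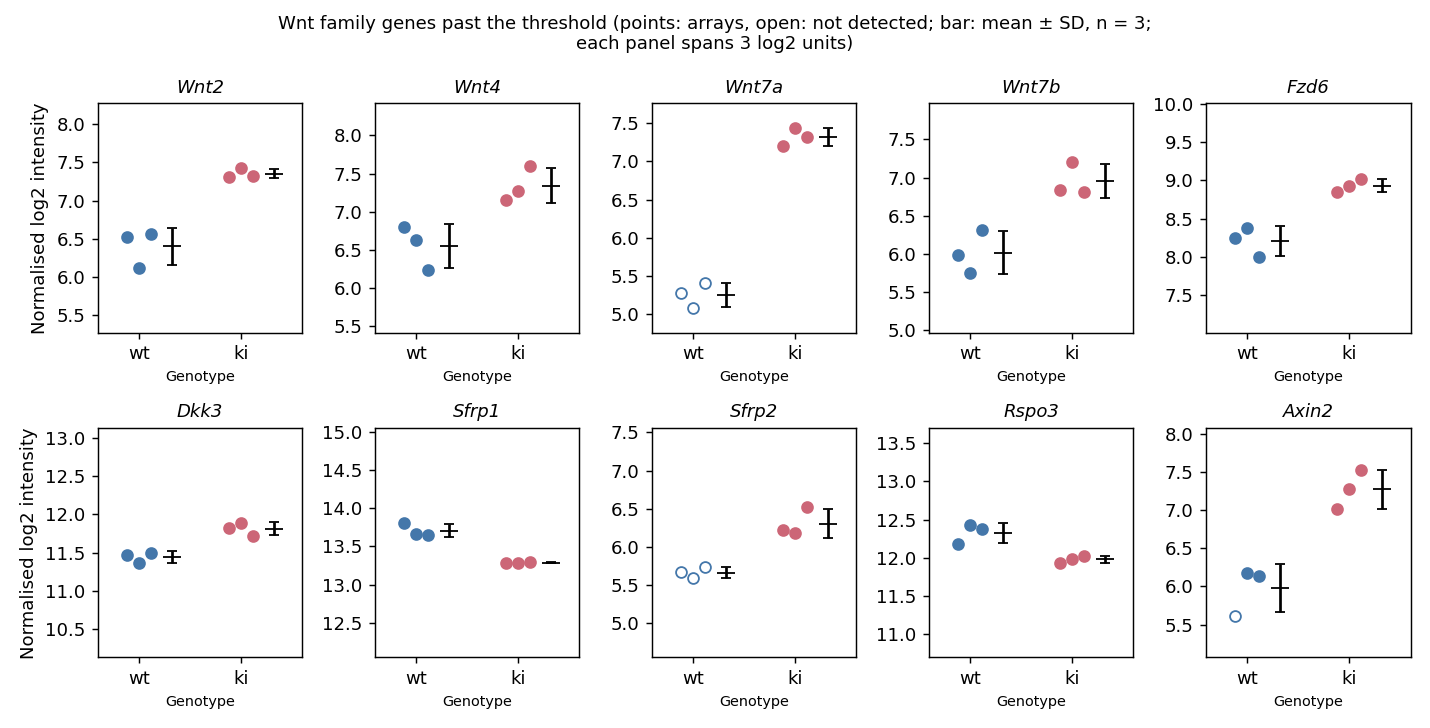
Normalised log2 intensity (vertical axis, 3 log2 units in each panel) of the 10 Wnt family genes that passed, on each wt and ki array (points; open where not detected), with the mean ± SD of n = 3. In every panel the 3 ki points lie on one side of the 3 wt points, above them in 8 genes and below them for Sfrp1 and Rspo3.

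Frizzled receptors, which bind Wnts through a cysteine-rich domain, had 1 riser among 8 tested, Fzd6, and 0 that fell (limma, with 1 higher and 1 lower at an unadjusted p under 0.05). Fzd6, a receptor that orients hairs and other polarised structures in the mouse, was at 8.24, 8.38 and 8.001 in wt and at 8.85, 8.93 and 9.02 in ki. Every ki array was above every wt array, 1.65-fold on average (0.72, SE 0.11, adjusted p = 0.00749). Its second probe, also detected on all 6 arrays, rose by 0.87 (SE 0.11). Fzd6 passed with any 1 array left out (adjusted p 0.0129 to 0.0298).

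The other receptors did not pass. Fzd2 was at 8.24, 8.12 and 8.07 in wt and at 7.77, 7.32 and 7.90 in ki, so its groups did not overlap, and the difference of -0.48 (SE 0.16, adjusted p = 0.0883) had a 95% interval of -0.85 to -0.11 before adjustment. Fzd1 differed by -0.35 with overlapping groups. Fzd7 and Fzd5, both detected on all 6 arrays, differed by -0.042 (interval -0.25 to 0.17) and 0.11 (interval -0.12 to 0.35). Fzd8 differed by 0.23 and Fzd4, detected on 3 arrays, by -0.15. The probes of Fzd3, a receptor of axon guidance, went apart. The representative probe, detected on 1 wt and 2 ki arrays, differed by 0.093. A second probe was detected on all wt arrays, at 5.87, 5.87 and 6.29, and on 0 ki arrays, at 5.32, 5.19 and 5.55, with a difference of -0.66 (SE 0.15, adjusted p over all probes 0.0317). As a bound this is at least 1.19-fold lower, so the sign of the Fzd3 difference varies with the probe read. The second probe passed the detection filter only through its wt arrays, so its p-value is no support for a fall. This probe was singled out after its values were seen. The co-receptors Lrp5 and Lrp6 differed by -0.24 (SE 0.13) and -0.38 (SE 0.21), and neither passed (limma adjusted p = 0.255 and 0.277, and neither at an unadjusted p under 0.05). The second Lrp6 probe gave -0.34.

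Of the secreted inhibitors, 3 of 9 were tested and each of these passed, 2 higher and 1 lower. Sfrp1, which binds Wnts through a Frizzled-like domain, was at 13.81, 13.67 and 13.65 in wt and at 13.29, 13.28 and 13.30 in ki. The ki arrays nearly coincided and lay below every wt array, a 1.34-fold fall (-0.42, SE 0.077, adjusted p = 0.0137). A second, dimmer Sfrp1 probe was lower on all ki arrays too, by -0.15 (SE 0.074, adjusted p over all probes 0.228). Sfrp1 passed with any 1 array left out, and missed the threshold without both wt array 1, the brightest, and ki array 2, the dimmest (-0.36, adjusted p = 0.11).

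Sfrp2, a close relative of Sfrp1, went the other way. It was at 5.67, 5.59 and 5.73 in wt, all undetected, and at 6.22, 6.18 and 6.52 in ki, all detected. The rise was at least 1.48-fold (fitted difference 0.64, SE 0.11, adjusted p = 0.0106), and like Wnt7a it entered the test only through its ki arrays. Dkk3, a divergent Dickkopf that is not known as a blocker of LRP5 and LRP6 in the way of Dkk1, was at 11.47, 11.36 and 11.50 in wt and at 11.83, 11.89 and 11.72 in ki. All ki arrays were above all wt arrays, by 1.29-fold (0.37, SE 0.082, adjusted p = 0.0268), and a second probe rose by 0.42 (SE 0.098). The remaining Dkk3 probe, detected on 1 wt and 2 ki arrays, differed by 0.26 (SE 0.28) with overlapping groups. The Dkk3 call was lost without any of wt arrays 1 to 3 or ki arrays 1 or 2 (adjusted p 0.0599 to 0.0935). It was also lost with the mean of the gene's probes (adjusted p = 0.119), with median scaling over detected probes (0.30, adjusted p = 0.0529) and with median scaling over all probes (0.091, adjusted p = 0.744).

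In the R-spondin branch 4 of 9 genes were tested, 1 fell and 0 rose (limma, also 1 and 0 at an unadjusted p under 0.05). Rspo3, an R-spondin that endothelial and stromal cells release, was at 12.18, 12.43 and 12.37 in wt and at 11.93, 11.98 and 12.02 in ki. Every ki array was below every wt array, 1.27-fold on average (-0.35, SE 0.090, adjusted p = 0.0431). The second Rspo3 probe fell by 0.48 (SE 0.12) and its groups did not overlap. The call on the brightest probe was lost without wt array 2 or 3 or any 1 ki array (adjusted p 0.0812 to 0.134). Rspo2, needed for lung and limb growth in the mouse, differed by 0.39 (SE 0.25, adjusted p = 0.336), and Rspo4 by 0.089, both near background. Lgr6, an R-spondin receptor, was detected on 1 wt array and all ki arrays. Its levels were 5.50, 6.25 and 5.53 in wt and 6.18, 6.03 and 6.14 in ki, so that wt array 2 stood above the ki arrays. The difference of 0.36 (adjusted p = 0.29) did not pass, and became 0.60 (adjusted p = 0.0168) without wt array 2. That array was the only wt array that detected Lgr6. Without it the gene stood in the test only through its ki arrays, so the lower p-value is no support for a rise.

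Axin2, a scaffold of the beta-catenin destruction complex whose gene beta-catenin itself switches on, rose in ki. It was at 5.61, 6.18 and 6.14 in wt, with wt array 1 undetected, and at 7.01, 7.28 and 7.53 in ki. The groups did not overlap and the fitted rise was 2.45-fold (1.29, SE 0.19, adjusted p = 0.00602). Axin2, Wnt7a and Wnt2 passed in all 18 alternatives that gave them a value, and the difference of Axin2 ranged from 0.955 to 1.42. Lef1, the other transcription-side member, was undetected on all of its 4 probes.

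**Figure D3:**
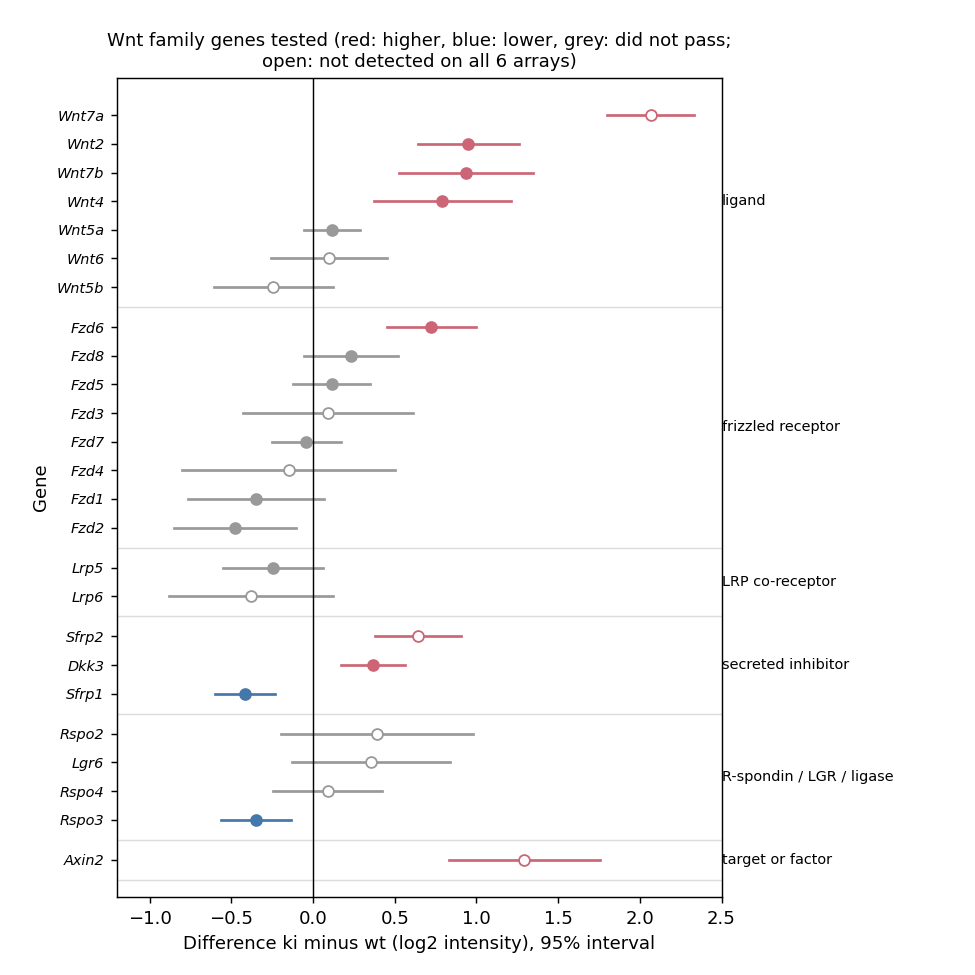
Difference ki minus wt in log2 intensity (horizontal axis) of the 25 tested Wnt family genes with its 95% interval, ordered by role; red marks genes higher in ki, blue lower, grey those that did not pass, and open points genes not detected on all 6 arrays. Wnt7a stands farthest to the right at 2.07, and the largest difference below 0, Fzd2 at -0.48, did not pass.

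Genes on a list of known Wnt targets had calls in both directions. Of 10 tested, 2 rose and 2 fell, beside 8.71% and 7.5% of all genes tested. Without Axin2, the 1 family member among them, 1 of 9 rose and 2 fell, with a median difference of -0.10. Such small counts say little about the list as a whole. Whether beta-catenin activates these genes in these cultures was not tested. Ccnd1, which encodes cyclin D1, rose from 11.92, 11.99 and 12.07 in wt to 12.70, 12.79 and 12.89 in ki, 1.74-fold (0.80, SE 0.085, adjusted p = 0.0016). Median scaling over all probes ended that call (0.48, adjusted p = 0.0575). Ccn4, a matricellular protein, was lower on every ki array, 1.34-fold (-0.42, SE 0.069, adjusted p = 0.00848). The transcription factor Myc was 1.44-fold lower (-0.52, SE 0.11, adjusted p = 0.0244), was detected on 1 ki array, and missed the threshold without wt array 1 or 3 or ki array 1 or 3 (adjusted p 0.0675 to 0.0819). Nkd1 and Apcdd1, feedback inhibitors named here for their role after their values were seen, differed by 0.27 (adjusted p = 0.118) and -0.026 and did not pass.

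Among genes that act in Wnt secretion and inside the cell, Porcn and Nkd2 were lower in ki. Of 27 tested, 0 rose and 2 fell, beside 8.71% and 7.5% of all genes tested, so the share that fell was near the background. The median was -0.001 (limma, 2 higher and 6 lower at an unadjusted p under 0.05). Porcn, the enzyme that attaches the lipid Wnts need for release, was at 10.00, 9.97 and 9.91 in wt and at 9.001, 9.16 and 9.09 in ki. The groups did not overlap, a 1.84-fold fall (-0.88, SE 0.077, adjusted p = 0.000779). Nkd2, which binds Dishevelled and dampens Wnt signals, fell 2.09-fold (-1.06, SE 0.14, adjusted p = 0.00393), with all ki arrays at or below 8.07 and all wt arrays at or above 8.74. Both passed with any 1 array left out. Wls, the carrier that brings Wnts to the cell surface, differed by 0.047, beta-catenin (Ctnnb1) by 0.23 (adjusted p = 0.0928), and the TCF factors Tcf7l1 and Tcf7l2 by 0.046 and -0.001, none of them passing; these too were named for their roles.

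Among other surface and secreted Wnt proteins 6 of 20 rose and 3 fell, beside 8.71% and 7.5% of all genes tested. Their median was -0.052. Cthrc1, a secreted glycoprotein that stabilises Wnt bound to Frizzled and Ror2, was at 9.98, 10.00 and 10.04 in wt and at 11.44, 11.39 and 11.32 in ki. The groups did not overlap, a 2.59-fold rise (1.37, SE 0.073, adjusted p = 0.000106). Of the planar polarity genes, which align cells within a sheet, Prickle2 (0.50) and Prickle1 (0.36) rose while the atypical cadherin Celsr3 fell (-0.52). Celsr1, a relative of Celsr3, was undetected on all wt arrays and at least 1.10-fold higher in ki, and entered the test only through its ki arrays. The formin Daam1, which links Dishevelled to actin, rose by 0.36 and the glypican Gpc3 by 0.35. Tspan12, a partner of Fzd4, fell by 0.53, and Ror2, a receptor of Wnt5a, fell by 0.43. With any 1 array left out 2 or 3 of these genes were higher and 1 to 3 lower. Cthrc1, Prickle2 and Tspan12 passed in each of those 6 fits, whereas Daam1 and Gpc3 passed in 0 of them, Celsr1, Prickle1 and Ror2 in 1 and Celsr3 in 4. Under median scaling over all probes Cthrc1 alone of the 6 kept its call: Prickle2 was at 0.26 (adjusted p = 0.329), Daam1 at 0.12 and Gpc3 at 0.067.

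Markers of other cell types moved on the same arrays, where 8.71% of all genes tested rose and 7.5% fell. Of 11 tested mesothelial genes, those of the pleural lining, 10 rose and 1, Igfbp5, fell, with a median of 2.72. Their summed linear intensity was 5474 to 5846 on the wt arrays and 12130 to 12793 on the ki arrays. Igfbp5 (mean 11.90 in wt and 10.27 in ki) made up most of the wt sums, so the sums understate the rise of the others. Of 13 tested epithelial genes, which share the keratins Krt8, Krt18 and Krt19 with the mesothelial list, 10 rose and 0 fell (limma, 11 and 0 at an unadjusted p under 0.05), with a median of 1.98 and sums of 2464 to 2668 in wt and 11017 to 11353 in ki. Some listed genes mark epithelium in general and others lung epithelial types. Sftpd (1.15, adjusted p = 0.00129) and Cdh1 (1.28, adjusted p = 0.0115) were detected on all 6 arrays and rose. Scgb1a1 and Ager were detected on all 6 and did not pass. Epcam, Krt5, Sftpc, Sftpb and Foxj1 were detected on no array. These 9 genes were named after their values were seen. Krt19 and Gpm6a among the mesothelial risers, and Krt19 and Esrp1 among the epithelial ones, were detected on no wt array. They entered the test only through their ki arrays, so they had to differ to be tested. Gpm6a and Esrp1 were also named after their values were seen. The part of the mesothelial and epithelial transcripts in the higher levels of Wnt7a, Wnt2, Wnt7b, Wnt4, Fzd6, Sfrp2, Dkk3 and Axin2 was not tested.

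Neutrophil genes fell, 8 of 9 tested with a median of -2.52, from sums of 13175 to 13945 in wt to 3395 to 3879 in ki, with S100a8 differing by -1.76 and S100a9 by -3.93. Mpo, Ngp, Ctsg and Camp, named after their values were seen, were detected on all wt arrays and on 0 ki arrays. These genes entered the test only through their wt arrays, so they had to differ to be tested. Prtn3 differed by -0.097 and did not pass. Of 15 tested macrophage and leukocyte genes 1, Adgre1, rose and 4 fell, with sums of 181772 to 183361 in wt and 166926 to 173911 in ki. Of 15 tested fibroblast genes 3 rose and 5, among them Col1a1, fell, with sums of 130056 to 139996 in wt and 112870 to 119543 in ki. Of 9 tested endothelial genes 0 passed (limma, 1 higher and 4 lower at an unadjusted p under 0.05), and their sums were 5858 to 6448 in wt and 5728 to 6003 in ki. Of 9 smooth muscle and pericyte genes 2 rose and 3 fell. The shares over all genes tested, beside which each of these counts stands, were 8.71% higher and 7.5% lower. The part of these shifts in the lower Sfrp1 and Rspo3 was not tested.

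**Figure D4:**
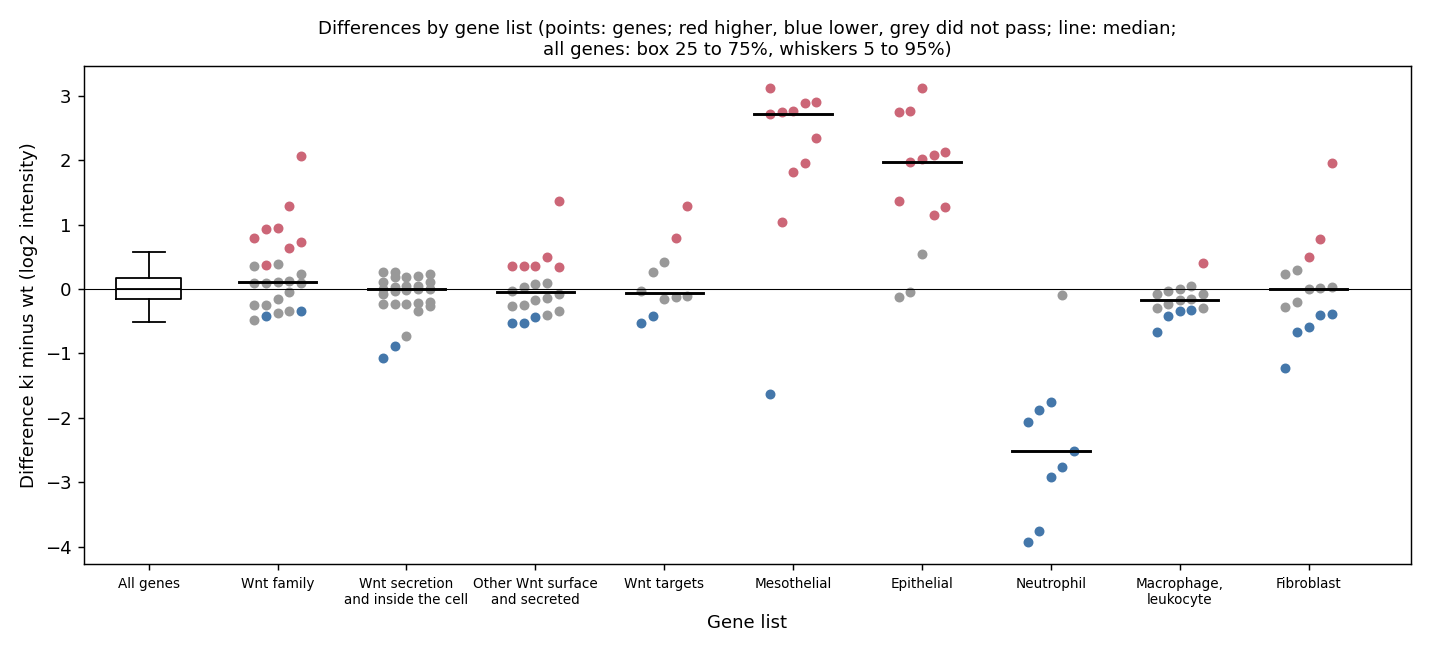
Difference ki minus wt in log2 intensity (vertical axis) of each tested gene (points) by gene list, with the list's median as a line, beside all 10412 tested genes (box from the 25th to the 75th percentile, whiskers from the 5th to the 95th). The Wnt family has a median of 0.11 with 8 genes higher and 2 lower, the mesothelial and epithelial medians are 2.72 and 1.98, and the neutrophil median is -2.52.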

How the data were processed

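RNA from 6 cultures was measured on 6 Illumina bead arrays, 1 per mouse. The deposited intensities of the unnormalised table are linear and background-subtracted (28.6% to 32.0% of values below 0), and the detection p-values deposited beside them, per the file headers, compare a probe with negative controls; the sources used here name neither the scanner software nor the way values were normalised. A normalised table of the authors, equal to the series values in 100% of cells, served as an alternative. Mean deposited intensity per array was 519.4 to 846.7. With limma 3.58.1 in R 4.3.3, intensities were corrected by normexp (controls inferred from detection p, offset 16), quantile-normalised and log2-transformed; lmFit and eBayes gave Benjamini-Hochberg adjusted p-values over 10412 genes, each represented by its probe with the highest mean over all arrays. Genes came from the platform annotation: 34885 probes had 1 symbol, 18 several and 10378 none. Lowest detected levels set the bounds. The fit was tested on simulated data with known changes: every call on a changed gene had the right direction, but recovery of changed genes fell short of the mark first set, which was then lowered, with the fit left as it was. Promoters came from RefSeq, GRCm38.p6. All tested family genes are named, with the genes that passed on the other lists and up to 3 of each marker list by mean level; any other gene named was chosen after its values were seen. The family and all lists were chosen with earlier results of these data known. Alternatives covered background, scaling, filter, moderation, weights, replicate block, probe choice, threshold and arrays left out.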

Additional observations from a re-analysis of the deposited data

How the results depend on the processing

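The count of family genes called higher, 8 as reported, was 2 with detection p under 0.01 on all arrays and 5 with a replicate block. It was 3 without both wt array 1 (brightest) and ki array 2 (dimmest), and 4 at adjusted p under 0.01. Leaving out 1 array gave 6 to 7. Without wt array 2 the 7 were 6 of the 8 reported genes and Lgr6, which did not pass with all arrays. The count called lower, 2 as reported, was 4 under median scaling over all probes, 1 with no detection filter, 1 with the replicate block, 4 when every probe was tested (probes, not genes), 0 without both arrays, 0 at adjusted p under 0.01 and 0 with a 1.5-fold minimum; leaving out 1 array gave 1 to 2. Replicate numbers gave no sign of pairing: deviations of same-numbered arrays correlated at 0.0039, 0.014 and 0.10, and those of differently numbered arrays at -0.12 to 0.11. Deviations from a mean of 3 arrays are tied to one another, so these values cannot exclude pairing. Over all genes, 907 higher and 781 lower became 361 and 1302 under median scaling over all probes (which moved the median gene to -0.22), 352 and 270 without both arrays, 423 and 309 at adjusted p under 0.01, and 460 and 354 with the 1.5-fold minimum; leaving out 1 array gave 567 to 679 and 433 to 569.

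Secretion and intracellular genes, 0 higher and 2 lower, had 1 higher and 4 lower with trended robust moderation, 1 and 5 when every probe was tested, and 4 lower under median scaling over all probes. Other surface and secreted genes, 6 higher and 3 lower, had 1 higher under median scaling over all probes, 2 with the replicate block, 3 with the mean of a gene's probes, 1 higher and 0 lower without both arrays, 2 and 1 at adjusted p under 0.01, and 1 and 0 with the 1.5-fold minimum; leaving out 1 array gave 2 to 3 higher and 1 to 3 lower. Targets, 2 higher and 2 lower, had 1 higher under median scaling over all probes, 4 with no filter, 5 when every probe was tested, 1 and 1 under the strict detection filter, 1 lower each with median scaling over detected probes, moderation, block and adjusted p under 0.01, and 0 without both arrays or with the 1.5-fold minimum; leaving out 1 array gave 1 to 2 lower.

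The differences that turned sign belonged to genes that did not pass. Fzd3 became -0.28 with the mean of its probes, -0.036 without wt array 1, -0.017 without ki array 2 (up to 0.31 with 1 array left out) and -0.15 without both arrays. Fzd4 became 0.081 under median scaling over detected probes and 0.029 without ki array 2 (down to -0.41 with 1 array left out). Median scaling over all probes gave Fzd5 -0.12 and Wnt5a -0.12, and brought Fzd1 (-0.55) and Fzd2 (-0.68) past the threshold. Fzd2 also passed with trended robust moderation. With 1 array left out Fzd7 ranged from -0.11 to 0.013 (without ki array 3), Rspo4 from -0.064 (without wt array 1) to 0.17, and Wnt6 from -0.012 (without wt array 2) to 0.23. Rspo4 was -0.012 without both arrays. The cause was not tested. Genes near background, among them Wnt7a, Sfrp2 and Axin2 in wt, have only a bound or a weak signal there. The alternatives for single genes of the other Wnt lists were chosen after seeing the data.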
